A study of Mus musculus with 15 samples.

Results

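The expression of 10 genes that act in growth arrest and cell cycle entry was followed in mouse liver. They are Cdkn1a, Ccng1, Mdm2, Gadd45a, Gadd45b, Gadd45g, Ccnd1, Myc, Tk1 and Rrm2, and they were taken by gene symbol from a table of 17527 genes. The study sequenced total liver RNA of mice with diet-induced nonalcoholic steatohepatitis (NASH, a fatty liver with inflammation) and asked what biotransformed bear bile powder (BBBPH) does to it. There were 15 libraries, 5 in each of 3 groups. For 20 weeks both the model and the BBBPH mice ate a chow that drew 60% of its energy from fat, 20% from protein and 20% from carbohydrate and held 0.2% cholesterol, and they drank sugar water (42 g/L, 55% of it sucrose and 45% fructose). From week 12 the model mice were given saline and the BBBPH mice 150 mg/kg of the powder by mouth each day. The BBBPH arm had 14 dosed mice, of which 5 libraries are given, and the food of the control mice, their strain, sex and age are not stated in the sources used here. The diet and the sugar water came together, so model against control cannot separate them from each other. Nor can it separate them from any difference in what is not stated for the control mice. BBBPH differed from the model by the dosing. Libraries are named by group and label number. The labels do not say that each came from a separate animal, so the p-values measure the spread between these libraries.

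The tumour suppressor p53 acts as a transcription factor after DNA damage and other stress. Cdkn1a encodes p21, an inhibitor of cyclin-dependent kinases and the best known p53 target in cell cycle arrest. Ccng1 encodes cyclin G1, and Mdm2 encodes the ubiquitin ligase that marks p53 itself for destruction. The 3 GADD45 genes encode small stress-induced proteins that bind p21, PCNA and the MAP kinase kinase kinase MEKK4. Ccnd1 (cyclin D1) and Myc carry growth signals into the G1 phase, while Tk1 (thymidine kinase) and Rrm2 (a subunit of ribonucleotide reductase) supply nucleotides for DNA synthesis. Most hepatocytes of an adult liver rest outside the cell cycle and can re-enter it after injury.

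Levels are FPKM (fragments per kilobase, scaled to the library's depth) as the authors deposited them, so genes can be compared per length. Depth was 35395712 to 39624160 fragments per library. The members were covered by 16 fragments in the thinnest library (Gadd45b) up to 5382 (Gadd45g), and all 10 had a mean of at least 1 FPKM, the level above which genes were tested. Fold changes are differences of group means on log2(FPKM + 1), which understate the change of low genes, and a gene counts as changed at a limma adjusted p under 0.05 over the 9575 genes tested. A few libraries stood apart in ways that touch the members. Model 1_4 had the highest summed acute-phase genes (65670 FPKM, the other 4 model libraries 11840 to 17390) and the lowest sum of 8 hepatocyte markers (30740 FPKM). BBBPH 2_1 had the lowest summed clock genes (75.7 FPKM), with Dbp, a clock-driven transcription factor, at 3.51 FPKM and 30.8 to 52.1 FPKM in the other BBBPH libraries. It also had the highest acute-phase sum of its group (17560 FPKM, the others 10630 to 13060). Control 3_4 had the highest summed immediate early genes (152.7 FPKM, the median control 94.9). BBBPH 2_2 carried pancreatic acinar RNA (2835 summed FPKM of 6 markers, the median BBBPH library 21.4) and control 2_1 carried skeletal muscle RNA (350.5, the median control 1.33). All 8 hepatocyte markers were expressed at a mean of at least 1 FPKM, and none was at 0 throughout a group.

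Markers of cell types and of the clock also moved with the groups. The summed hepatocyte markers were at 58560 to 66820 FPKM in the control, 30740 to 54050 in the model and 53090 to 63450 in BBBPH, so that every model library lay below every control library. Alb alone made up most of this sum (21140 of 30740 FPKM in model 1_4). Of the 8 hepatocyte markers, 3 were called lower and 0 higher in the model, where 8.64% and 29.9% of all genes were. In BBBPH against model 2 were called lower and 1 higher (12.2% and 14.2% of all genes). The summed level of 8 stellate cell and fibroblast markers was 106.7 to 130.4 FPKM in the control, 139.3 to 175.4 in the model and 127.2 to 140.7 in BBBPH. Every model library lay above every control library in this sum. Dcn alone made up most of it (112 of 139.3 FPKM in model 1_1, 113.7 of 130.4 in control 1_5). In the model 6 of these 8 markers were called higher (29.9% of all genes were), and in BBBPH against model 3 were called lower (12.2%). Of 12 tested clock genes, 2 rose and 5 fell in the model, where 29.9% and 8.64% of all genes did. In BBBPH against model 5 of these clock genes rose and 4 fell (14.2% and 12.2% of all genes did). Per2, a repressor of the clock, stood at 6.24 ± 1.16 FPKM in the control, 3.29 ± 0.649 in the model and 4.90 ± 0.885 in BBBPH. The part of these differences in the members' values was not tested.

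Promoter sequence was read from RefSeq (GRCm38.p6), which matched 8 of the 10 members, over the 250 bases before each start. The first pair of sequences is shown for letters close to what p53 binds, a pair of adjacent 10-base half-sites. Binding was not tested. In the lines that follow, capitals mark 20 bases that match the p53 consensus pair with at most 1 letter off and the C and G at the core of each half-site in place. The Cdkn1a stretch is chr17:29090898-29090975 (plus strand) and lies upstream of the first of 2 RefSeq promoters, its capitals covering bases 51 to 32 before that start. The Ccng1 stretch is chr11:40755432-40755511 (minus strand), its capitals covering bases 195 to 176 before the start.
Cdkn1a: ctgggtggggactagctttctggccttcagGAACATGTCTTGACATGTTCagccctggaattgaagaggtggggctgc
Ccng1: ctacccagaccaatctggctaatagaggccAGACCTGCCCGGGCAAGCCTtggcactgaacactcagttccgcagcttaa
Of 32851 promoters of the same length, 19 (0.0578%) held such a pair on either strand. The allowance of 1 letter was set after the Cdkn1a sequence had been seen. No such pair was found in the windows of Mdm2, the GADD45 genes, Tk1 and Rrm2, which says only that these letters are absent there.

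The second pair of sequences shows the promoters of Gadd45g and Gadd45b, family members that moved in opposite directions in the model. Capitals mark CACGTG (an E-box, the kind of site that MYC and clock proteins can bind), CCAAT and TATAAA. The Gadd45g stretch is chr13:51846503-51846674 and the Gadd45b stretch chr10:80929876-80930072, both on the plus strand.
Gadd45g: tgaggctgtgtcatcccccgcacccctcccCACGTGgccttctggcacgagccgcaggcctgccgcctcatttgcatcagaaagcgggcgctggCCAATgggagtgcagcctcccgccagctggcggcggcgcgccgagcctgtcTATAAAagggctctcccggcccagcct
Gadd45b: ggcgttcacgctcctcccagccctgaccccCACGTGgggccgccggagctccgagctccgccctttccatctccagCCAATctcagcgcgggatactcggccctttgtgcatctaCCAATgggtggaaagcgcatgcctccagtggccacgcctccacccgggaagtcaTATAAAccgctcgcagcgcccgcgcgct
Both hold the 3 motifs in the same order, and Gadd45b holds CCAAT at 2 places. Searched on both strands, CACGTG was in 6.02% of all promoters, CCAAT in 33.8% and TATAAA in 12.4%. Gadd45a, Mdm2, Ccng1 and Rrm2 held CCAAT, and neither the Tk1 window nor the second Cdkn1a promoter held any motif searched, TTTGGCGC and TTTCGCGC (E2F sites) among them. These matches describe the letters and show no binding.

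Cdkn1a, the p21 gene (GRCm38, chr17:29090976-29100727), was the member that rose most in the NASH model. The 5 control libraries had 1.21, 1.12, 0.936, 1.15 and 2.58 FPKM (1_1, 1_5, 2_1, 2_2 and 3_4), and the 5 model libraries had 27.7, 13.4, 7.37, 10.4 and 18.3 FPKM (1_1, 1_4, 2_1, 2_3 and 3_4). Every model library lay above every control library, and the highest control was 3_4. The mean went from 1.40 ± 0.668 to 15.4 ± 7.97 FPKM (SD, n = 5 each), a ratio of 11.0, with a log2 fold change of 2.68 ± 0.479 (SE, limma adjusted p = 0.000615). In bulk liver, more RNA per cell and a change in which cells were present cannot be told apart, here or for the other genes.

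The BBBPH libraries split for Cdkn1a. They had 10.04, 0.730, 0.511, 0.376 and 0.607 FPKM (2_1, 2_2, 3_1, 3_2 and 3_4), so that BBBPH 2_1 lay inside the model range and the other 4 lay below the lowest control. Against the model the log2 fold change was -2.71 ± 0.479 (limma adjusted p = 0.000806), and without BBBPH 2_1 it was -3.27 (adjusted p = 7.13e-06). Against the control it was -0.03 ± 0.479 (adjusted p = 0.973), and without BBBPH 2_1 it was -0.59 (adjusted p = 0.116). BBBPH 2_1 was also the library with the lowest clock genes and the highest acute-phase sum of its group, and the part of these in its Cdkn1a level was not tested. In the annotation, 7.68% of the exonic bases of Cdkn1a lie opposite a transcript with no gene symbol in the table.

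Ccng1, cyclin G1 (chr11:40748552-40755311), moved less but with less spread. It stood at 10.2, 9.97, 12.7, 10.5 and 7.68 FPKM in the control, at 15.3, 14.8, 17.7, 19.6 and 16.3 in the model, and at 9.18, 10.6, 9.41, 10.5 and 10.5 in BBBPH, in the order of libraries given for Cdkn1a. The model range overlapped neither of the others, and the BBBPH range lay within that of the control. The log2 fold change was 0.67 ± 0.103 for model against control (limma adjusted p = 0.00019), -0.68 ± 0.103 for BBBPH against model (adjusted p = 0.000244) and -0.01 ± 0.103 for BBBPH against control (adjusted p = 0.963).

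Mdm2 (chr10:117688875-117710758), the gene of the p53 ligase, changed least among the members that passed the test. The control libraries held 2.89, 2.98, 2.63, 3.01 and 3.38 FPKM, the model libraries 3.36, 4.12, 3.58, 3.71 and 3.06, and the BBBPH libraries 2.52, 2.73, 2.74, 2.93 and 2.50. The ranges of control and model overlapped, while every BBBPH library was below every model library. Its rise of 0.20 ± 0.0697 in the model (limma adjusted p = 0.0352) was not called under median-ratio scaling (0.08, adjusted p = 0.41), under quantile scaling (0.06, adjusted p = 0.459), or without any one of control 1_1, 1_5, 2_1 and 2_2 or model 1_4, 2_1 and 2_3 (0.16 to 0.20, adjusted p 0.0562 to 0.0892). BBBPH was lower than the model by a log2 fold change of -0.31 ± 0.0697 (adjusted p = 0.00439). BBBPH against control gave -0.11 ± 0.0697 (adjusted p = 0.246), which became -0.24 and a call under median-ratio scaling (adjusted p = 0.0259) and -0.26 under quantile scaling (adjusted p = 0.0122).

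**Figure D1:**
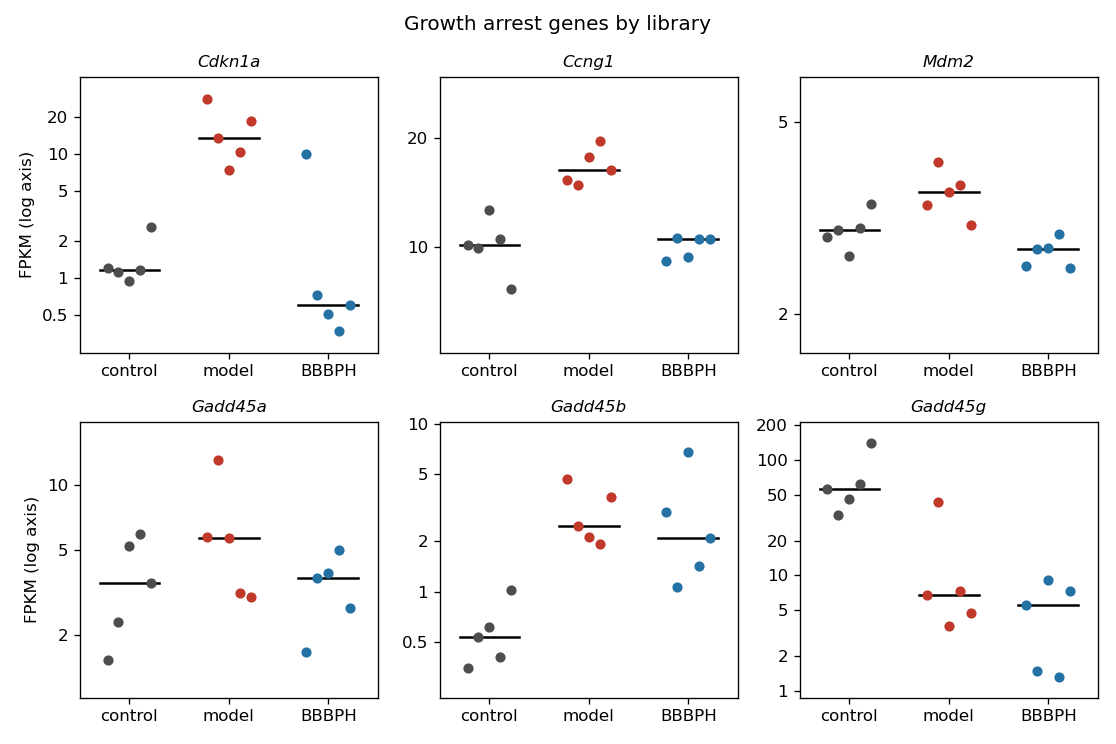
FPKM (log axis) of Cdkn1a, Ccng1, Mdm2, Gadd45a, Gadd45b and Gadd45g in each of 15 libraries, with a line at each group median. Cdkn1a was at 7.37 to 27.7 FPKM in the model and at or below 2.58 in the control, with 1 BBBPH library at 10.04. Gadd45g ran the other way, with 1 model library (1_4) at 43.3 FPKM, inside the control range.

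A list of 27 further p53 target genes was set beside these members, and 17 of them were expressed highly enough to test. In the model, 8 of the 17 rose and the list's median log2 fold change was 0.19, against 0.12 for all 9575 genes, of which 29.9% were called higher. The 3 with the smallest adjusted p were Ei24 (0.70 ± 0.09, limma adjusted p = 4.67e-05), Bax, the pore-forming apoptosis protein (0.60 ± 0.0813, 6.88e-05), and Fas, the death receptor (0.79 ± 0.114, 0.000115). Trp53, the p53 gene itself, rose from 4.92 ± 0.381 to 6.87 ± 0.53 FPKM (0.41 ± 0.0763, limma adjusted p = 0.00081). It was 1 of 2 genes called among 8 tested genes of p53 and its regulators, where 38.6% of all genes were called. The other was the acetyltransferase gene Ep300, which fell (-0.30, adjusted p = 0.00813). Under median-ratio and under quantile scaling 5 of the 8 were called, 1 higher and 4 lower.

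In BBBPH against the model, 8 of the 17 p53 targets fell and 4 rose, with a list median of -0.04 against 0.02 for all genes. All genes called lower made up 12.2% of those tested and all called higher 14.2%. Ddit4, a stress-induced inhibitor of mTOR, fell most surely (from 6.29 ± 1.11 to 2.29 ± 0.474 FPKM, log2 fold change -1.14 ± 0.128, limma adjusted p = 2.59e-05), followed by Ei24 (-0.50, 0.000993) and Btg2, an antiproliferative gene (-1.09, 0.00173). Without model 1_4 and BBBPH 2_2 together, 7 of the list were called. In BBBPH against control 6 rose and 3 fell, where 24.4% and 3.70% of all genes did, and 3 in all were called under median-ratio scaling and 4 under quantile scaling. The 3 named there by adjusted p were Perp, a p53 target of cell adhesion (0.36, 0.002), the kinase gene Plk3 (-2.33, 0.00339) and Ddit4 (-0.61, 0.0038). Trp53 stood at 7.34 ± 0.863 FPKM in BBBPH, above the control by 0.49 ± 0.0763 (adjusted p = 0.000653).

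The 3 GADD45 genes did not move together. Gadd45g (chr13:51846678-51848468) was the most highly expressed member in the control and fell in the model. Control libraries had 56.0, 33.2, 45.3, 61.5 and 141 FPKM, model libraries 6.79, 43.3, 3.65, 7.35 and 4.69, and BBBPH libraries 5.49, 1.48, 9.17, 1.32 and 7.26. Model 1_4, at 43.3, sat inside the control range, and the other 4 model libraries lay below every control, as did all 5 BBBPH libraries. The mean fell from 67.4 ± 42.4 to 13.2 ± 16.9 FPKM in the model (SD, n = 5 each; log2 fold change -2.67 ± 0.579, limma adjusted p = 0.00231) and was -3.23 without model 1_4 (adjusted p = 0.000156). BBBPH was below the control by -3.59 ± 0.579 (adjusted p = 0.000797). Against the model it differed by -0.92 ± 0.579 (adjusted p = 0.262), or by -0.36 without model 1_4 (adjusted p = 0.608).

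Gadd45b (chr10:80930073-80932204) rose. Its control values of 0.350, 0.538, 0.611, 0.405 and 1.03 FPKM all lay below the model values of 4.71, 2.46, 2.13, 1.93 and 3.66 and below the BBBPH values of 2.99, 1.07, 6.81, 1.42 and 2.09. The lowest BBBPH library (2_2) was close to the highest control (3_4), and BBBPH 3_1 was the highest of all 15. The model mean was 5.08 times that of the control (log2 fold change 1.29 ± 0.288, limma adjusted p = 0.00276), and BBBPH against control gave 1.13 ± 0.288 (adjusted p = 0.0103). Because the control was near the added 1 FPKM, the same differences came to 2.16 and 1.90 with 0.1 FPKM added instead. BBBPH and model differed by -0.16 ± 0.288 (adjusted p = 0.721).

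Gadd45a (chr6:67035096-67037457), the DNA damage-inducible founder of the family, passed the test in no comparison. It had 1.54, 2.32, 5.21, 5.95 and 3.51 FPKM in the control, 5.72, 13.1, 5.68, 3.15 and 3.02 in the model, and 1.67, 3.69, 3.91, 4.98 and 2.68 in BBBPH. The groups overlapped and the highest value was model 1_4. The log2 differences were 0.54 ± 0.34 for model against control (limma adjusted p = 0.222; 0.25 without model 1_4), -0.59 ± 0.34 for BBBPH against model (0.217; -0.31 without model 1_4) and -0.06 ± 0.34 for BBBPH against control (0.918). Of its exonic bases, 19.1% lie opposite the gene E230016M11Rik, and since the strand setting of the counting is not stated, reads of the pair cannot be told apart.

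Among 10 tested genes of GADD45 partners and stress kinases, 2 rose in the model, where 29.9% of all genes did. Ddit3 (CHOP), a transcription factor of the unfolded protein response and also known as GADD153, went from 2.87 ± 0.939 to 10.5 ± 6.78 FPKM (log2 fold change 1.44 ± 0.255, limma adjusted p = 0.000557), and Mapk9 (JNK2) by 0.22 (0.0142). In BBBPH, Ddit3 was at 1.39 ± 0.294 FPKM, a fall of 2.11 on the log2 scale from the model (adjusted p = 4.29e-05), with every BBBPH library (1.10 to 1.88 FPKM) below every model library (5.71 to 22.4). The list held 4 called genes there (26.5% of all genes were called), with Mapk9 also lower (-0.24) and Map2k3, a kinase upstream of p38, higher (0.57, adjusted p = 0.0362). That count was 2 without any one of model 1_1, model 2_1, BBBPH 2_2, BBBPH 3_2 and BBBPH 3_4.

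Ccnd1, cyclin D1 (chr7:144929931-144939925), rose in the model. Control libraries held 5.81, 6.19, 6.24, 7.608 and 5.84 FPKM and model libraries 7.610, 9.51, 13.5, 8.72 and 9.10, so that the groups did not overlap, although control 2_2 and model 1_1 all but met. BBBPH libraries spread over both ranges at 5.17, 5.42, 7.06, 7.76 and 9.07 FPKM. The log2 fold change was 0.53 ± 0.145 for model against control (limma adjusted p = 0.0102) and 0.09 ± 0.145 for BBBPH against control (adjusted p = 0.677). BBBPH against model gave -0.44 ± 0.145 (adjusted p = 0.0353), a call that was lost with no filter on low genes (adjusted p = 0.0645), in a fit of these 2 groups alone (0.0699) and without any one of model 1_4, model 2_1, BBBPH 2_1, BBBPH 2_2 and BBBPH 3_1 (-0.45 to -0.32, adjusted p 0.0523 to 0.092). LTO1 overlaps 23.4% of the exonic bases of Ccnd1 on the other strand, at a mean of 3.20 FPKM.

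Of 14 other tested G1 cyclins, kinases, RB and E2F genes, 6 rose and 2 fell in the model, where 29.9% of all genes rose and 8.64% fell. Cdk2, the kinase that p21 inhibits at the entry to S phase, fell from 4.37 ± 0.25 to 2.56 ± 0.409 FPKM (log2 fold change -0.60 ± 0.0942, limma adjusted p = 0.000226), while Ccnd2, cyclin D2, rose by 0.26 (0.0054) and E2f6 by 0.31 (0.00959). The count of 8 was 5 without model 2_1 and 2 under median-ratio and quantile scaling, both of them lower, so that all 6 rises were lost there. In BBBPH against model 3 rose and 3 fell (14.2% and 12.2% of all genes did), with Cdk2 higher by 0.52 ± 0.0942 (adjusted p = 0.00093) and Ccnd2 and E2f6 lower by -0.33 (0.00176) and -0.37 (0.00466). In BBBPH against control 2 rose and 1 fell (24.4% and 3.70% of all genes did), namely Cdk4, the kinase partner of cyclin D (0.43, 0.000911), E2f4 (0.24, 0.0237) and Ccnd3 (-0.28, 0.0101), and 5 were called without BBBPH 2_1. Of 4 tested CDK inhibitor genes other than Cdkn1a, 0 were called in the model (38.6% of all genes) and 0 in BBBPH against control (28.1%). In BBBPH against model 1 rose (14.2% of all genes did), a call lost in 19 of 31 alternatives.

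Myc (chr15:61985391-61990374) fell in both groups on the NASH diet. The control had 14.3, 9.90, 20.3, 20.6 and 38.6 FPKM, the model 3.07, 16.5, 1.71, 2.33 and 1.36, and BBBPH 1.05, 1.83, 1.36, 0.956 and 2.61. Model 1_4 again lay inside the control range, the other 4 model libraries and all BBBPH libraries lay below every control, and the highest control was again 3_4. The log2 fold change was -2.19 ± 0.452 for model against control (limma adjusted p = 0.00165), and -2.70 without model 1_4 (2.64e-05). For BBBPH against control it was -2.99 ± 0.452 (adjusted p = 0.000569), and for BBBPH against model -0.80 ± 0.452 (0.213), or -0.29 without model 1_4 (0.517).

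Myc and Gadd45g had much the same pattern over the 15 libraries. Of all tested genes, the 2 nearest to Myc were the transcription factor gene Foxq1 and Gadd45g, and the 2 nearest to Gadd45g were Myc and Foxq1. Likeness was the mean absolute difference of log2(FPKM + 1) after each gene was standardized, which was 0.191 for Myc and Foxq1, 0.230 for Myc and Gadd45g and 0.309 for Gadd45g and Foxq1. Foxq1 went from 31.1 ± 11.6 FPKM in the control to 9.13 ± 8.24 in the model and 5.09 ± 2.98 in BBBPH. The measure takes in the difference between groups and the libraries that stand apart, and it is a description without a test. Model 1_4, the model library high in both genes, was also the one with the highest acute-phase sum and the highest immediate early sum of its group (131.8 FPKM, the group median 95.2), and the part of these in its Myc and Gadd45g levels was not tested.

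**Figure D2:**
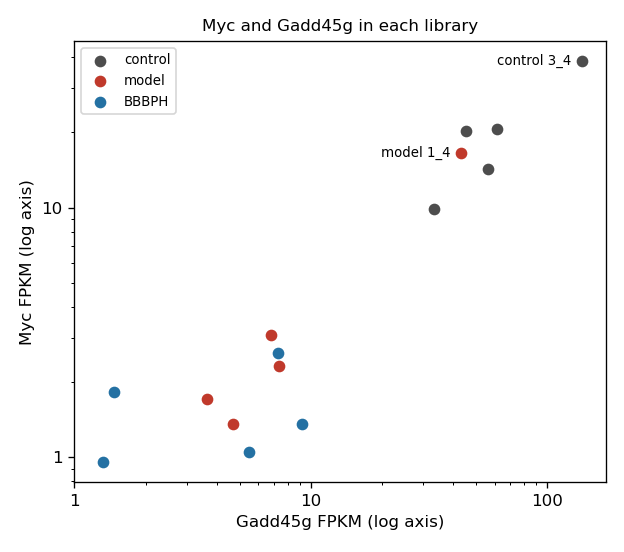
Myc against Gadd45g in each of the 15 libraries, both in FPKM on log axes, coloured by group. The control libraries and model 1_4 form the upper right (Myc at least 9.90 and Gadd45g at least 33.2 FPKM), and the other 9 libraries the lower left (Myc at most 3.07 and Gadd45g at most 9.17).

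A list of 17 MYC-induced genes, mostly of ribosome synthesis and metabolism, was called in shares near those of all genes in the model. There 5 rose, where 29.9% of all genes did, and 1, Ncl, fell (-0.20, adjusted p = 0.0345), where 8.64% did, with Ldha, a glycolytic enzyme, up by 0.59 ± 0.111 (limma adjusted p = 0.000891), Rrp9 by 0.55 (0.00127) and Cad, an enzyme of pyrimidine synthesis, by 0.42 (0.0135). In BBBPH against control 7 rose (24.4% of all genes did), led by Polr1b, a subunit of RNA polymerase I (0.39, 0.00353), Nme1 (0.44, 0.00547) and Apex1 (0.37, 0.00547). That count was 1 under median-ratio and 1 under quantile scaling. In BBBPH against model 4 rose (14.2% of all genes did), among them Ncl, the nucleolin gene (0.32, 0.00414), Polr1b (0.27, 0.0258) and Nme1 (0.30, 0.0344), and 1 or 2 were called without any one of model 1_1, model 3_4, BBBPH 2_1, BBBPH 2_2 and BBBPH 3_2. List medians were 0.09, 0.22 and 0.10 in the order of these comparisons, and those of all genes 0.12, 0.13 and 0.02. Of 9 tested genes of the MYC network (partners and relatives of MYC), 2 rose and 1 fell in the model (29.9% and 8.64% of all genes did). In BBBPH against model 1 rose and 2 fell (14.2% and 12.2%), and in BBBPH against control 2 rose and 1 fell (24.4% and 3.70%). Over the alternatives described below, the counts called were 0 to 3, 1 to 4 and 0 to 3 in these comparisons.

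Tk1, thymidine kinase (chr11:117815526-117826092), gave the smallest adjusted p of the members in the model. It stood at 16.0, 17.9, 15.5, 22.4 and 12.6 FPKM in the control, at 5.44, 4.56, 5.92, 5.04 and 6.42 in the model and at 11.7, 17.2, 12.8, 11.4 and 15.9 in BBBPH. All 5 model libraries were below every other library, and control and BBBPH overlapped. The mean was 16.9 ± 3.62 FPKM in the control, 5.48 ± 0.728 in the model and 13.8 ± 2.59 in BBBPH (SD, n = 5 each). The log2 fold change was -1.45 ± 0.139 for model against control (limma adjusted p = 5.17e-06) and 1.18 ± 0.139 for BBBPH against model (3.58e-05). BBBPH against control gave -0.27 ± 0.139 (0.155), which passed the test under median-ratio scaling (adjusted p = 0.0408). Of its exonic bases, 1.6% lie opposite Afmid. The nearest gene to Tk1 was Dnajb6, a co-chaperone gene (0.184), which stood at 21.0 ± 2.42, 12.9 ± 0.302 and 18.8 ± 1.55 FPKM in control, model and BBBPH.

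Rrm2, the ribonucleotide reductase subunit (chr12:24708241-24714146), behaved otherwise. It had 2.52, 2.25, 2.27, 2.57 and 1.28 FPKM in the control, 1.53, 1.06, 1.94, 2.19 and 2.59 in the model, and 3.86, 4.54, 3.55, 6.39 and 4.82 in BBBPH. Control and model overlapped, with control 3_4 the lowest control, and all 5 BBBPH libraries were above all 10 others. The log2 fold change was -0.16 ± 0.163 for model against control (limma adjusted p = 0.457), 0.98 ± 0.163 for BBBPH against model (0.000491) and 0.82 ± 0.163 for BBBPH against control (0.00275).

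**Figure D3:**
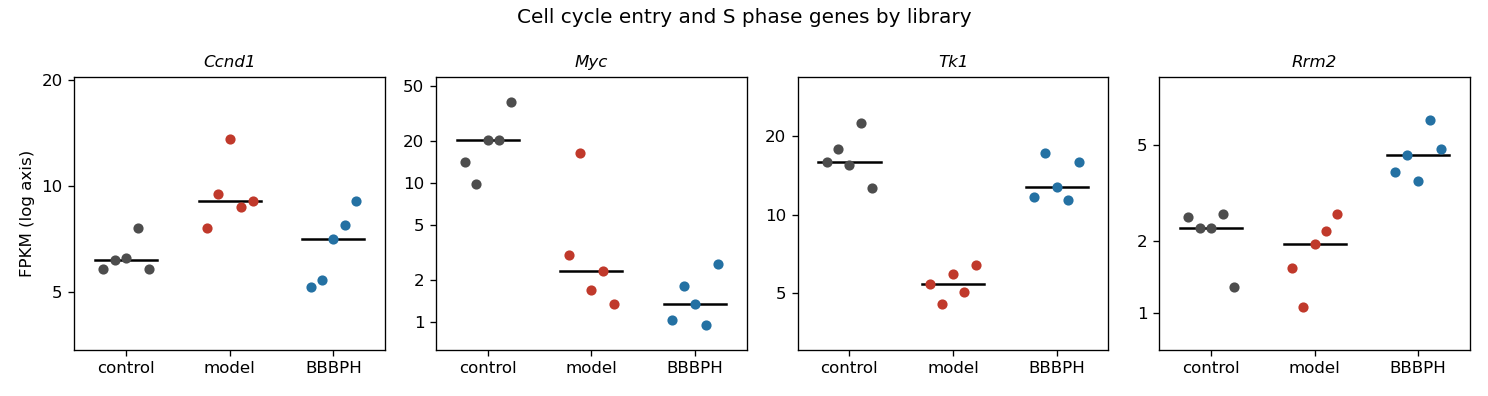
FPKM (log axis) of Ccnd1, Myc, Tk1 and Rrm2 in each library, with a line at each group median. Tk1 was at 4.56 to 6.42 FPKM in the model and at 11.4 or more elsewhere, and Rrm2 was at 3.55 to 6.39 FPKM in BBBPH and at 2.59 or less elsewhere.

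Of 26 other S phase genes listed, 16 were tested. In the model 4 of the 16 rose, where 29.9% of all genes did, among them the helicase genes Mcm4 (0.44 ± 0.0894, limma adjusted p = 0.00142) and Mcm3 (0.28, 0.029) and the primase gene Prim1 (0.39, 0.00941). The count was 2 without any one of control 1_1, 1_5 and 2_2 or model 1_4, 2_1 and 2_3. In BBBPH against model 2 rose (14.2% of all genes did), Rrm1, the partner subunit of Rrm2 (from 2.60 ± 0.287 to 3.61 ± 0.424 FPKM, 0.36 ± 0.0911, adjusted p = 0.00957), and Tyms, thymidylate synthase (0.24, 0.0299). The count was 1 without any one of model 1_1, BBBPH 2_2, BBBPH 3_2 and BBBPH 3_4. In BBBPH against control 4 rose (24.4% of all genes did), led by Prim1 (0.61, 0.00119), Mcm7 (0.53, 0.00152) and Rrm1 (0.45, 0.00303). The list's median log2 fold changes were 0.11, 0.12 and 0.20 in these 3 comparisons, and those of all genes 0.12, 0.02 and 0.13.

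None of 25 mitosis genes reached a mean of 1 FPKM, so none was tested. Their summed level was 4.02 to 6.99 FPKM in the control, 4.92 to 9.07 in the model and 3.20 to 6.03 in BBBPH, and the groups overlapped. Mki67, the proliferation marker Ki-67, was at 0.133 to 0.351 FPKM over all 15 libraries. The summed level of the 26 S phase genes was 57.2 to 66.96 FPKM in the control, 59.2 to 74.4 in the model and 64.2 to 81.97 in BBBPH.

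**Figure D4:**
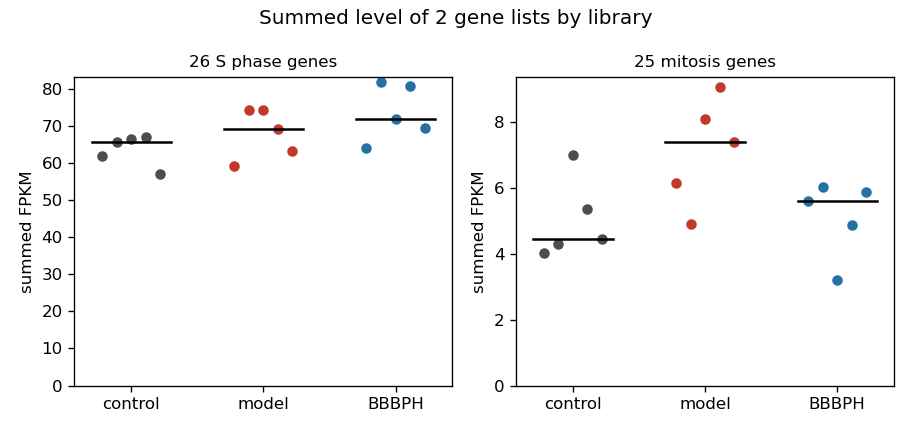
Summed FPKM of 26 S phase genes (left) and 25 mitosis genes (right) in each library, with a line at each group median. The 3 groups overlap in both panels, and the mitosis sum stays under 9.08 FPKM in every library.

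Set side by side, the members fell into several patterns, with the caution that the 3 comparisons share libraries and are not independent of each other. In the model against the control, 5 of the 10 members were higher and 3 lower, where 38.6% of all tested genes were called, 29.9% higher and 8.64% lower. For 5 members the libraries of these groups did not overlap, which held for 23.9% of all genes. In BBBPH against the model 2 were higher and 4 lower (26.5% of all genes were called), and 4 did not overlap (17.0% of all genes). In BBBPH against the control 2 were higher and 2 lower (28.1% of all genes were called), and 4 did not overlap (17.5% of all genes). With 10 members, the counts are few and are given as a description. Without model 1_4, BBBPH 2_2 and control 2_1 the calls numbered 7, 5 and 4 in these comparisons, and without model 1_4, BBBPH 2_1 and control 3_4 they numbered 8, 5 and 4. Over all genes tested, the median fold change on the log2 scale was 0.12 in the model and 0.13 in BBBPH against the control, and -0.01 in each under median-ratio scaling, so that fold changes of that size depend on the scaling. All genes called split into 2865 higher and 827 lower in the model, against 1483 and 1809 under median-ratio scaling and 1534 and 1734 under quantile scaling. In BBBPH against control the split was 2337 and 354, against 667 and 944 and 710 and 835.

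Cdkn1a, Ccng1, Mdm2 and Ccnd1 were called higher in the model than in the control and lower in BBBPH than in the model. Tk1 was called the opposite way in both. The call of the Mdm2 rise was lost in 14 of 30 alternatives and that of the Ccnd1 fall in 12 of 31. The other calls of these genes were each lost in at most 1 alternative. Myc and Gadd45g were called lower, and Gadd45b higher, in both diet groups against the control, with no call between BBBPH and model. Rrm2 was called in both comparisons of BBBPH and not between model and control.

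**Figure D5:**
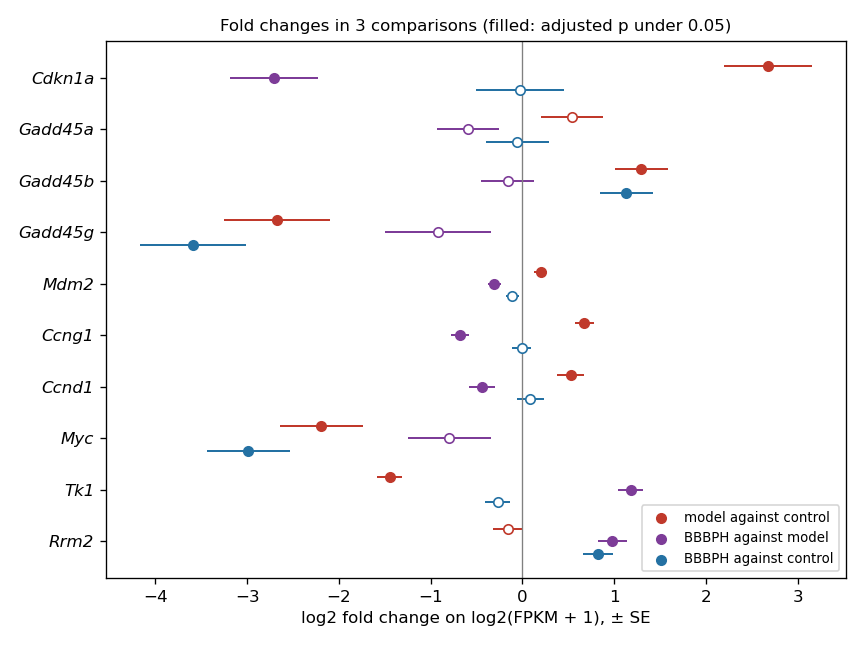
Log2 fold change on log2(FPKM + 1) with its SE for the 10 members in 3 comparisons, filled where the limma adjusted p was under 0.05. Cdkn1a has a filled point at 2.68 for model against control and at -2.71 for BBBPH against model, and Myc and Gadd45g have filled points below -2 in both comparisons with the control.

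The order of the members' levels differed between the groups. In the control it ran from Gadd45g (67.4 FPKM) through Myc (20.7), Tk1 (16.9), Ccng1 (10.2), Ccnd1 (6.34), Gadd45a (3.71), Mdm2 (2.98), Rrm2 (2.18) and Cdkn1a (1.40) to Gadd45b (0.586). Only between Ccng1 and Ccnd1 and between Mdm2 and Rrm2 did the ranges of neighbours not overlap. In the model Ccng1 (16.8) and Cdkn1a (15.4) led, and every neighbour overlapped. In BBBPH the order began with Tk1 (13.8), Ccng1 (10.1) and Ccnd1 (6.90), whose ranges did not overlap each other. It ended with Cdkn1a (2.45) and Myc (1.56), and from Ccnd1 onward every neighbour overlapped.

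For the remaining members the nearest genes by the same measure were less close or of other functions. Cdkn1a was nearest to Acnat2 (0.248), an acyltransferase gene that stood at 15.9 ± 7.21, 64.7 ± 16.2 and 21.4 ± 11.7 FPKM in control, model and BBBPH, and to Caprin1 (0.254). Mdm2 was nearest to Txnrd1, thioredoxin reductase (0.249), and Sh3bgrl2 (0.250), Ccng1 to the ubiquitin-conjugating enzyme gene Ube2l3 (0.254) and Msra (0.269), and Tk1 after Dnajb6 to Cnmd (0.230). Rrm2 was nearest to Mid1ip1, a regulator of fatty acid synthesis (0.251), which went from 14.4 ± 4.43 and 10.9 ± 3.64 FPKM in control and model to 29.2 ± 11.5 in BBBPH, and to A430005L14Rik (0.275). Gadd45b was nearest to the histone demethylase gene Kdm4a (0.299) and Hilpda (0.353). Gadd45a (Tlnrd1, 0.402, and Pvr, 0.410) and Ccnd1 (Xaf1, 0.402, and Usp14, 0.418) had no gene as near as the others had.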

How the data were processed

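Total liver RNA was sequenced in 15 libraries. The values are the authors' deposited FPKM, 1 column per library, in a series table whose values equal those of 15 single files. The build is mm10 per the submitters' processing notes, which also list DESeq2, HTSeq, HISAT2 and fastp with no version or role. The annotation and the strand setting are not given in the sources used here. Of 17051 genes above 0 in any library, 15858 had values in whole-number ratios (within 0.02 of a whole number). Lengths, depth and counts were recovered from these genes. Of the fits, only voom used the recovered counts, and the others used the deposited FPKM whether or not a gene met this rule.

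The 9575 of 17527 genes whose mean reached 1 FPKM entered a limma fit (limma 3.58.1, R 4.3.3) of log2(FPKM + 1), with 3 group means, 12 residual degrees of freedom and a trended prior. Benjamini-Hochberg adjustment of the 2-sided p-values was done separately for each comparison. In simulated data for model against control, 97% of 200 genes changed by 1 on the log2 scale were recovered over 9575 genes, and 3.96% of calls were unchanged genes. The simulation drew normal noise for each gene separately, with no outlying library and no shift of all genes. These rates therefore need not hold for the data. The members and gene lists were chosen with earlier results of these data known. All 10 members are named, with the 2 nearest genes of each member. For most pathway lists, up to 3 called genes of the smallest adjusted p are named in each comparison. The CDK inhibitor and MYC network lists are given by counts only. Alternatives were other pseudocounts, filters, scalings, TPM, a 2-group fit, voom on recovered counts, a replicate block and leaving out libraries; leaving out model 1_4 with BBBPH 2_1, and both with control 3_4, was added after the data had been seen. Positions are from GENCODE M21 (GRCm38). Python 3.11.15, numpy 2.4.6, pandas 2.3.3 and matplotlib 3.10.9 were used.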

Additional observations from a re-analysis of the deposited data

Results flagged for a closer look

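In 6 of the 30 groups of 5 libraries (10 members in 3 groups), 1 library was set apart from the other 4 by a gap of more than 0.71 of the group's whole range on the log2 scale, the 95% value of Dixon's test for 5 values. For independent groups of normal values, chance gives about 1 in 20. The members share the same 15 libraries, so the groups are not independent and the count is no test against that rate. Cdkn1a, the p21 gene, was at 10.04 FPKM in BBBPH 2_1 (gap 0.890 of the range), where the next BBBPH library had 0.730 FPKM. Cdkn1a was also at 2.581 FPKM in control 3_4 (0.785). Gadd45g, the stress-induced GADD45 gene, was at 43.32 FPKM in model 1_4 (0.740), and Myc was at 16.53 FPKM in the same library (0.727). Rrm2, the ribonucleotide reductase subunit, was lowest in control 3_4 at 1.283 FPKM (0.788). Ccnd1, cyclin D1, was at 7.608 FPKM in control 2_2 (0.737).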

How the results depend on the processing

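Over 31 alternatives and the 30 comparisons of single members, 881 of 918 values kept their side of the threshold. Another 34 lost a call, 3 gained one, and in 0 did a called value change sign. Some values called in neither fit did change sign, such as Gadd45g in BBBPH against model (-0.92, at most 0.05). With single libraries left out, 7 to 8 members were called in the model, 5 to 6 in BBBPH against model and 4 in each case in BBBPH against control. The replicate numbers were not shown to pair libraries (residual correlations of 8 same-numbered pairs -0.33 to 0.02, and 0 of 10 libraries matched their own number best). With a replicate block, 5, 1 and 2 members and 1315, 305 and 185 genes were called in model against control, BBBPH against model and BBBPH against control, against 3692, 2533 and 2691 genes without it. The calls not made with it were Cdkn1a, Mdm2 and Ccnd1 in the model (adjusted p 0.0537, 0.383 and 0.127), Cdkn1a, Mdm2, Ccng1, Ccnd1 and Rrm2 in BBBPH against model (0.211, 0.22, 0.0732, 0.215 and 0.109), and Gadd45b and Rrm2 in BBBPH against control (0.0909 and 0.0834). A filter at 5 FPKM left 2259, 1634 and 1502 genes called, and 2 members in BBBPH against control, because fewer genes were tested. In BBBPH against control 1611 genes were called under median-ratio and 1545 under quantile scaling, and the cause was not tested. The planned exact permutation test for untested members had no member to run on, since all 10 were tested. Intervals here cover the spread between libraries, and the 16 fragments behind the lowest Gadd45b value limit its precision.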
